A study of Mus musculus with 9 samples.

Results

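The endothelial and angiogenesis genes described here are 48 genes whose products build blood vessels, guide their growth or sit on the endothelial cells that line them. They were taken as a list of gene symbols, and each gene was represented by 1 probe set, the brightest on average of those annotated to that symbol alone. All 48 were found among the 18193 genes with such a probe set, and all 48 passed the filter on low signal, which kept 13691 genes. The list held 7 junction and surface proteins, 5 VEGF receptors and co-receptors, 3 VEGF ligands, 4 angiopoietins and Tie receptors, 2 apelin genes, 4 Notch genes, 5 transcription factors, 7 endothelial products, 4 leukocyte adhesion molecules, 2 lymphatic markers, 3 mural cell markers and 2 hypoxia-inducible factors.

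Expression was measured on Affymetrix GeneChip arrays of the tibialis anterior, a fast muscle of the shin, each array holding the RNA of a single mouse, for 3 groups of 3 mice. All mice were 15-week-old male C57BL/6J animals, and those chosen for the arrays had body and muscle weights near the average. The control group was fed an AIN93-based diet and injected with 0.9% saline, and the DEX group had the same diet and daily intraperitoneal injections of 5 mg/kg dexamethasone (DEX), a synthetic glucocorticoid that causes muscle atrophy, for a week. The DEX + TE group was injected with DEX in the same way and ate a diet containing 2% turmeric extract (TE), a water extract of the rhizome of Curcuma longa. The methods start the TE diet 5 days before the first injection, whereas the labels describe turmeric as given after DEX. Both treated groups carried DEX, and arrays of TE without DEX were not analysed here. The 3 comparisons share arrays, so that each array enters 2 of them.

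Blood vessels in skeletal muscle are mostly capillaries, which run along the fibers and bring them oxygen, glucose and fatty acids. VEGF-A made by fibers and other cells acts on the receptors VEGFR2 (Kdr) and VEGFR1 (Flt1) of endothelial cells, angiopoietins act through Tek to hold vessels stable, and Notch signals between neighbouring endothelial cells decide which of them sprout. Glucocorticoids are known to tighten endothelial junctions and to dampen leukocyte adhesion. In a whole muscle, fewer endothelial cells and less RNA per cell cannot be told apart.

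The signals are linear intensities, scaled so that the trimmed mean of each array was 500, and a signal of 50 was taken as the lower limit of detection. Array medians ran from 71.3 to 77.7 in the DEX group, from 76.0 to 86.2 in the control group and from 84.7 to 95.0 in the DEX + TE group. Fkbp5, a gene that glucocorticoids induce, was higher in DEX than in control muscle by 2.26 on the log2 scale (limma, adjusted p = 0.0134). It was the only 1 of 12 glucocorticoid response genes called higher there, 5 were higher and 7 lower by value, and Sgk1 was called lower (-0.72, adjusted p = 0.0416), with Per1 at -1.38 (adjusted p = 0.0609). The 13 genes used as markers of endothelial cells, all of them also among the 48, were each above 50 on at least 1 array of every group. Their summed signal ran from 9777 to 10824 in control, from 9255 to 10413 in DEX and from 10136 to 10230 in DEX + TE muscle, so the ranges overlapped. These sums include Cldn5, with means of 351, 1035 and 1501 in the same order. The overlap rests on Cldn5. Without it, the summed signal of the remaining markers was lower on every DEX and DEX + TE array than on every control array. By value 7 of the 13 were higher and 6 lower in each comparison with control. At an unadjusted p below 0.05 in limma, 3 of the 13 were higher and 3 lower in DEX than in control muscle, against 6.16% and 9.14% of all genes. In DEX + TE against control 3 were higher and 2 lower, against 7.69% and 6.76%. Only Cldn5 of the 13 was called. The pan-endothelial Tek, Cdh5 and Erg overlapped between groups and are given by range in the paragraphs on their families. Pecam1, also on all endothelial cells, did not overlap between groups in any comparison.

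A gene was called changed when limma's adjusted p, taken over all probe sets tested, was below 0.05 and the log2 fold change was at least 0.6 in size. In DEX against control, 1 of the 48 genes was called higher (Cldn5) and 2 were called lower (Aplnr and Gpihbp1). Of all 13691 genes tested, 0.278% were called higher and 0.321% lower. In DEX + TE against control the same 3 genes were called, together with Vcam1 as a further lower gene, against 0.278% of all genes higher and 0.175% lower. In DEX + TE against DEX no gene of the 48 was called by limma or by Rank Product, against 0% of all genes higher and 0.0073% lower. At an unadjusted p below 0.05, 3 of the 48 lay above DEX and 2 below, where 5.97% of all genes were higher and 1.49% lower. Prox1, among the higher genes, had a mean below 50 in control and DEX muscle and passed the filter only through the DEX + TE group, where it is high.

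More genes stood apart than were called. At an unadjusted p below 0.05 in limma, 6 of the 48 were higher and 12 were lower in DEX than in control muscle, where 6.16% and 9.14% of all genes were. The lower genes include Sele, which passed the filter only through the control group, where it is high. The signals of the 3 DEX and the 3 control arrays did not overlap for 20 of the 48 genes (41.7%), 7 of them higher and 13 lower, against 23.3% of all genes. Prox1, with a mean below 50 in both groups, is among the lower ones. In DEX + TE against control, 7 were higher and 11 lower at that p, against 7.69% and 6.76%, and 20 of the 48 did not overlap, against 24.7%. In DEX + TE against DEX only 6 of the 48 did not overlap (12.5%), against 15% of all genes. The 48 genes were chosen with earlier results of these data known, so these shares beside those of all genes are description only. The median size of the log2 fold change, without its sign, was 0.32 in DEX against control for the 48 genes and 0.21 for all genes. With its sign the median was -0.10 for the 48 and -0.03 for all genes, with 21 genes higher and 27 lower by value, and became 0.002 for the 48 when arrays were centred on their medians. For DEX + TE against DEX the signed median was -0.004 for the 48 genes and 0.04 for all genes, and for DEX + TE against control it was -0.08 and 0.02. Centring moved these medians of the 48 genes to -0.258 and -0.234. An exact permutation test of 3 arrays against 3 cannot give a two-sided p below 0.1, so single genes rest on the limma fit.

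**Figure D1:**
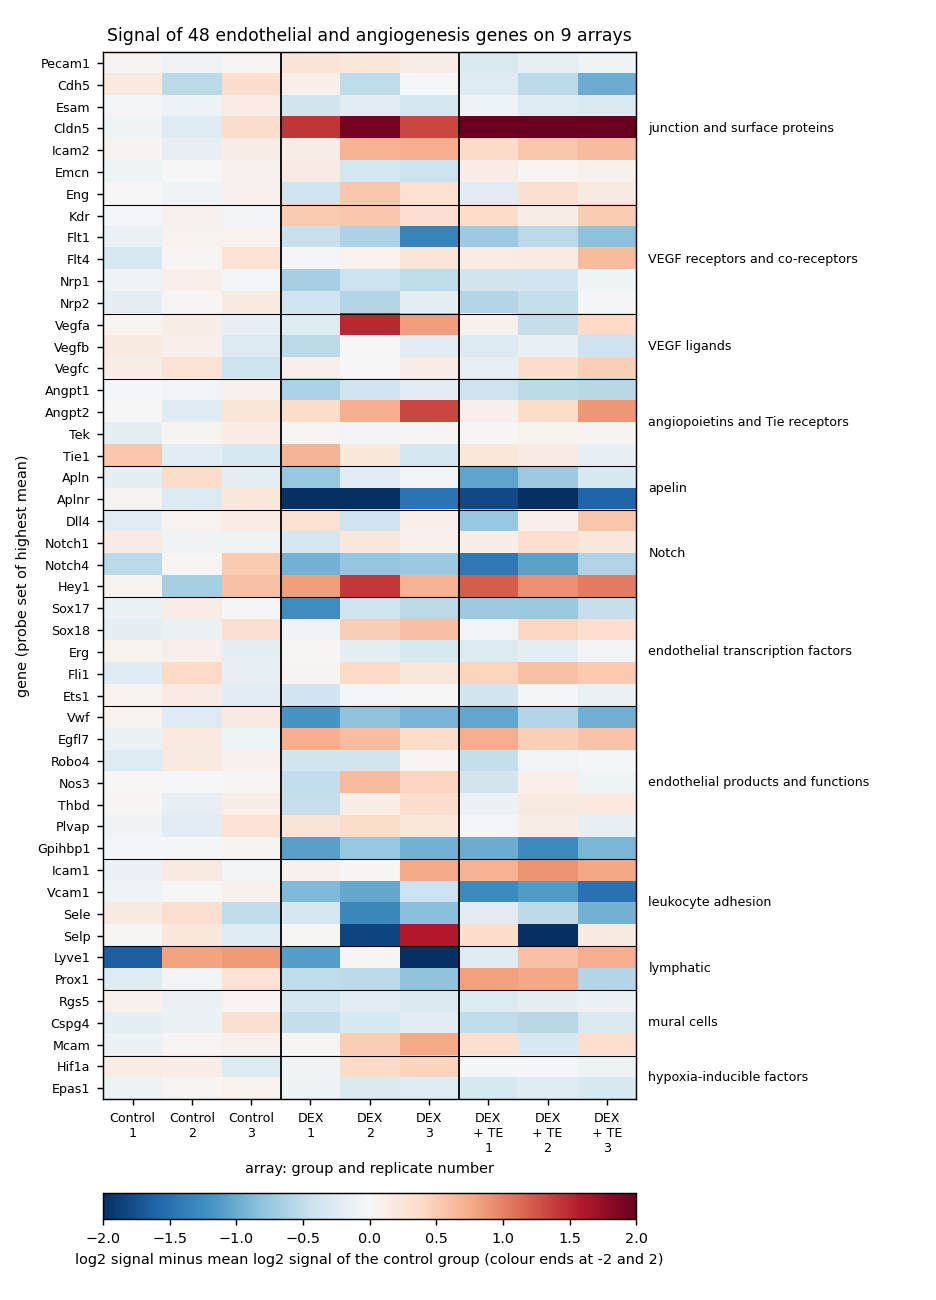
Heat map of the log2 signal of the 48 genes (rows, grouped by role) on the 9 arrays (columns, by group and replicate number), each minus the mean log2 signal of the 3 control arrays. Red is above and blue below the control mean, and colours end at -2 and 2. Cldn5 is red and Aplnr blue on all 6 arrays of the DEX and DEX + TE groups, whereas most other rows hold pale cells.

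Claudin 5 (Cldn5) is the tight junction protein that seals the cleft between endothelial cells. Its signal was 324, 287 and 441 on the control arrays, 931, 1303 and 871 on the DEX arrays, and 1383, 1476 and 1644 on the DEX + TE arrays. The 3 groups did not overlap, with control lowest and DEX + TE highest. Cldn5 rose 2.95-fold in DEX against control, a log2 fold change of 1.56 ± 0.21 (SE; limma, adjusted p = 0.0341). It rose 4.34-fold in DEX + TE against control, or 2.12 ± 0.21 (adjusted p = 0.0132). The step from DEX to DEX + TE was 0.56 ± 0.21 on the log2 scale and did not pass the test (adjusted p = 0.602). The DEX call was kept without control replicate 3 (adjusted p = 0.0496) and lost without each of the other 8 arrays, where the adjusted p reached at most 0.111. The DEX + TE call was kept in 5 of 9 such refits, whose adjusted p ran from 0.0187 to 0.0644. It was lost without control replicate 1 and without each of the DEX + TE arrays. The log2 fold change of Cldn5 in DEX against control stayed between 1.38 and 1.74 in all the settings tried.

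The 250 bases before the start of Cldn5 are shown with those of Egfl7 and Notch4. By value Egfl7 was higher and Notch4 lower in both treated groups than in control muscle, and neither was called. The sequences are shown because DEX acts through a receptor that binds DNA and because ETS and SOX factors are known regulators of endothelial genes. The sequences come from RefSeq (GRCm38.p6), are written 5′ to 3′ in the direction of the gene, and show every match to the motifs searched in capitals. For Egfl7 the start with the most motifs among its 3 starts is shown.
Cldn5, chr16:18776597-18776846, plus strand: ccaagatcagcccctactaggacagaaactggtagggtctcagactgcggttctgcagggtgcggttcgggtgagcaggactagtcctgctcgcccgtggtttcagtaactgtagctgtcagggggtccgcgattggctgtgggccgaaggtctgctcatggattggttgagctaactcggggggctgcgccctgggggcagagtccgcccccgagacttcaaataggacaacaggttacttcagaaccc
Egfl7, chr2:26583615-26583864, plus strand: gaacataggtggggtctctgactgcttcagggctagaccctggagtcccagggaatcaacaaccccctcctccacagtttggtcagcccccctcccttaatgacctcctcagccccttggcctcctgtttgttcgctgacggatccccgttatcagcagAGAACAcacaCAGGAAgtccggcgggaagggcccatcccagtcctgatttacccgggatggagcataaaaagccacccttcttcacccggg
Notch4, chr17:34564045-34564294, plus strand: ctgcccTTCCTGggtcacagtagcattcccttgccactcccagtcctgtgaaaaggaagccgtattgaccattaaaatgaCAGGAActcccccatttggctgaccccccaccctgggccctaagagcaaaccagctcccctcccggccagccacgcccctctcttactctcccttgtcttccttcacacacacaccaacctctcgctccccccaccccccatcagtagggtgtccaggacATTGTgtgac

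The motifs were searched on both strands of the same 250 bases of all 32851 promoters in the table, which held 34 promoters of 28 of the 48 genes. It held none of the called genes Aplnr, Gpihbp1 and Vcam1. The core unit of the glucocorticoid receptor element (AGAACA, or TGTTCT on the other strand) was in 16.1% of all promoters and in 2 of the 34, those of Egfl7 and Tek. In the Egfl7 promoter it lies 91 to 86 bases before the start. The full element, a core unit and its reverse 3 bases apart with up to 1 mismatch, was in 0.14% of all promoters and in 0 of the 34. The ETS core (CAGGAA or TTCCTG) was in 25.7% of all promoters and in 15 of the 34 (44.1%), among them those of Egfl7, Notch4, Tek, Tie1, Erg and Robo4. A SOX motif (ACAAT or ATTGT) was in 27.7% of all and in 7 of the 34. The hypoxia motif (ACGTG or CACGT) was in 16.6% of all and in 2 of the 34, those of Vegfa and Hif1a. A longer ETS motif (ACCGGAAG or CTTCCGGT) and an NF-kB motif (GGACTTTCC or GGAAAGTCC) were in none of the 34, against 1.72% and 0.283% of all. The Cldn5 window held none of these motifs. A match is a run of letters and no measured site, and no binding was measured in these samples.

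The other junction and surface proteins moved by less than Cldn5. Pecam1 (CD31), an adhesion molecule on all endothelial cells, read 689, 630 and 677 in control, 800, 768 and 726 in DEX, and 543, 594 and 628 in DEX + TE muscle. Each DEX + TE array was below each control array, and each control array below each DEX array. The largest of these differences, DEX + TE against DEX, was -0.38 ± 0.10 on the log2 scale, with an adjusted p of 0.458. Icam2, an adhesion molecule of resting endothelium, read 186, 160 and 196 in control, 197, 291 and 298 in DEX, and 236, 264 and 278 in DEX + TE muscle. All 6 treated arrays exceeded the control arrays, by 0.52 ± 0.18 in DEX (adjusted p = 0.26) and 0.52 ± 0.18 in DEX + TE (adjusted p = 0.281). Esam, a junctional adhesion molecule, read 1559, 1502 and 1778 in control, 1245, 1376 and 1261 in DEX, and 1510, 1340 and 1323 in DEX + TE muscle. Only the DEX arrays lay wholly below control, by -0.32 ± 0.11 (adjusted p = 0.257). Cdh5 (VE-cadherin, the adherens junction protein of endothelium), Emcn and Eng (a TGF-beta co-receptor) overlapped between groups in each comparison, with log2 fold changes from -0.59 to 0.29. The lowest was Cdh5 in DEX + TE against control (limma, adjusted p = 0.431), and the highest was Emcn in DEX + TE against DEX (adjusted p = 0.712).

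The VEGF receptors did not share a direction. Flt1, which encodes VEGFR1, a receptor that largely acts as a trap for VEGF-A, read 1795, 2057 and 2059 in control, 1437, 1264 and 778 in DEX, and 1188, 1357 and 1116 in DEX + TE muscle. The treated arrays all lay below the control arrays. The log2 fold change was -0.81 ± 0.23 in DEX (adjusted p = 0.176) and -0.69 ± 0.23 in DEX + TE (adjusted p = 0.256), and neither passed the test. Kdr, which encodes VEGFR2, the main signalling receptor, read 539, 588 and 532 in control, 793, 806 and 698 in DEX, and 710, 600 and 782 in DEX + TE muscle. The treated arrays all lay above the control arrays, by 0.47 ± 0.13 in DEX (adjusted p = 0.168) and 0.33 ± 0.13 in DEX + TE (adjusted p = 0.327). Neuropilin 1 (Nrp1), a VEGF co-receptor, read 2839, 3248 and 2974 in control, 1898, 2241 and 2129 in DEX, and 2329, 2315 and 2843 in DEX + TE muscle. The DEX arrays were the lowest and overlapped neither other group, at -0.53 ± 0.12 against control (adjusted p = 0.127). The step from DEX to DEX + TE was 0.25 ± 0.12 (adjusted p = 0.689) and became zero to 2 decimals when arrays were centred on their medians. By their brightest probe sets, Flt4 (VEGFR3) and Nrp2 stayed between -0.39 and 0.31 in the 3 comparisons, and their groups overlapped. A second Flt4 probe set read 25.2, 63.6 and 90.7 in control, 51.1, 8.54 and 9.20 in DEX, and 92.8, 52.4 and 109 in DEX + TE muscle. Its DEX + TE arrays lay above its DEX arrays, but its signals were near the limit of detection, so no fold is given for it.

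**Figure D2:**
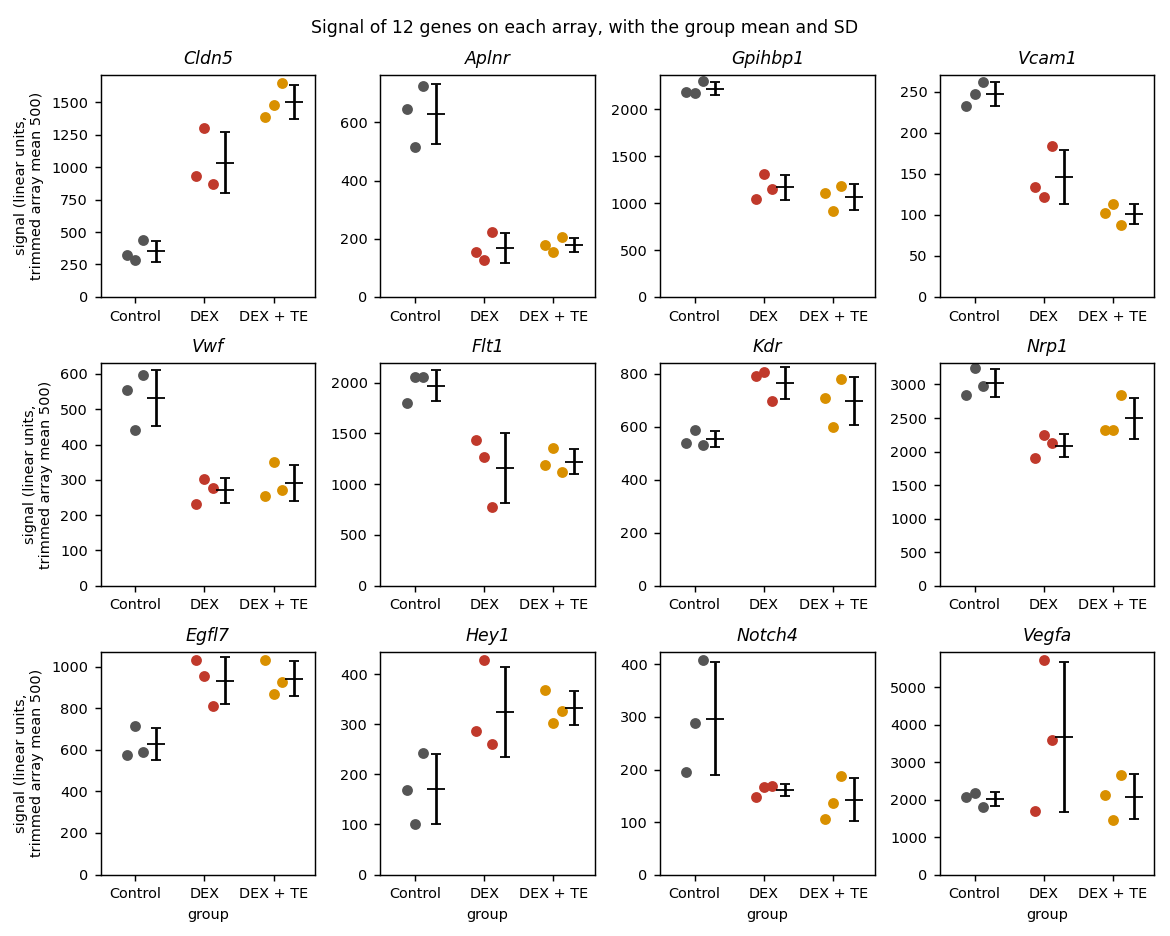
Signal (linear units, each axis from 0) of 12 genes on each array of the control, DEX and DEX + TE groups, with the mean and SD of 3 arrays beside the points. Control points are below both treated groups for Cldn5, Kdr, Egfl7 and Hey1 and above them for Aplnr, Gpihbp1, Vcam1, Vwf, Flt1 and Notch4, while the 3 DEX points of Vegfa run from 1709 to 5723.

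Several of these genes had more than 1 probe set. All 4 tested probe sets of Flt1 were lower in both treated groups than in control, from -0.16 to -0.81 in DEX. The 4 tested probe sets of Nrp1 were lower too, from -0.19 to -0.68 in DEX, with the lowest adjusted p at 0.0716. Of the 24 genes of the 48 with more than 1 tested probe set, all probe sets had the same sign in 20 for DEX against control, in 19 for DEX + TE against control and in 13 for DEX + TE against DEX. Nrp2, Cdh5 and Flt4 were among those whose probe sets differed in sign in DEX against control.

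**Figure D3:**
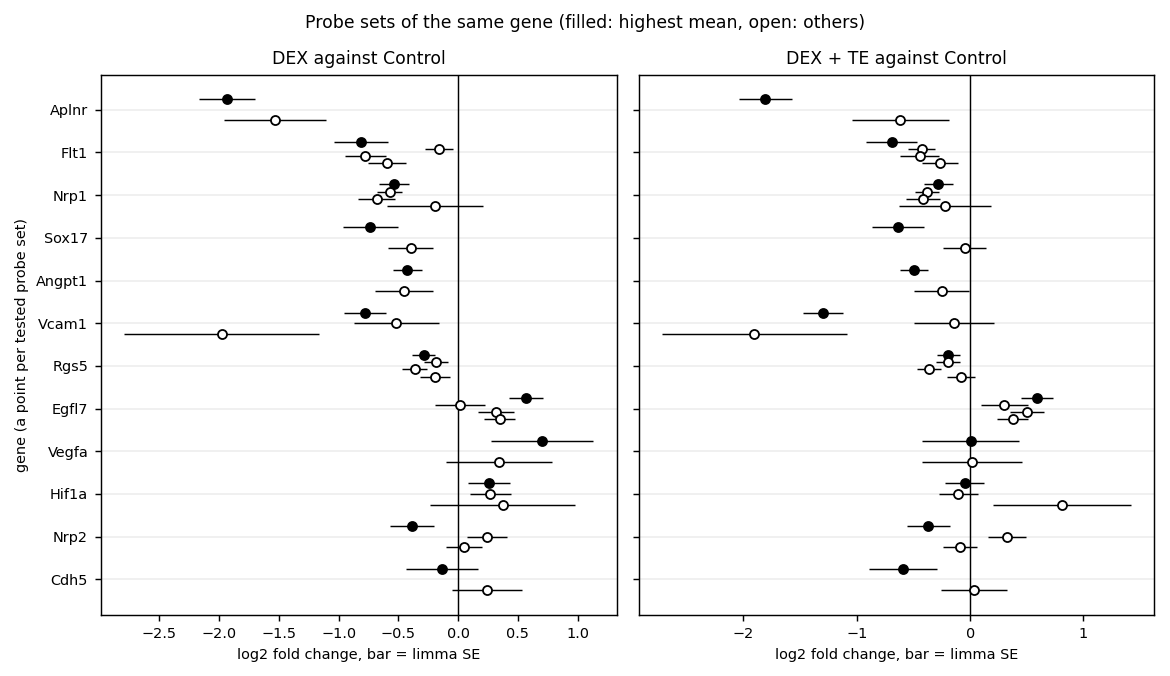
Log2 fold change with the limma SE for every tested probe set of 12 genes with more than 1, in DEX against control (left) and DEX + TE against control (right). Filled points are the probe sets with the highest mean. All points of Aplnr, Flt1, Nrp1 and Rgs5 are below 0 in both panels, those of Nrp2 and Cdh5 lie on both sides, and the leftmost point of Vcam1 rests on treated signals mostly below 50.

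The VEGF ligands were not called in any comparison. Vegfa, the main growth factor for capillaries, read 2063, 2185 and 1804 in control, 1709, 5723 and 3587 in DEX, and 2132, 1451 and 2662 in DEX + TE muscle. DEX arrays 2 and 3 were the highest of all 9 and DEX array 1 was below every control array, a 3.35-fold range within the group. The log2 fold change in DEX was 0.70 ± 0.43 (adjusted p = 0.5). The other Vegfa probe set had the same order in the DEX group, with 420, 1309 and 1263. Vegfa is given array by array because of this spread, which was chosen for description after its values were seen. Vegfb and Vegfc (the ligand of lymphatic growth) had log2 fold changes between -0.28 and 0.23, with overlapping groups.

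Of the angiopoietin genes, Angpt1, which encodes the ligand that activates Tek, read 945, 927 and 1019 in control, 619, 728 and 819 in DEX, and 723, 673 and 658 in DEX + TE muscle. All treated arrays were below control, by -0.42 ± 0.12 in DEX (adjusted p = 0.191) and -0.49 ± 0.12 in DEX + TE (adjusted p = 0.167). Angpt2, the context-dependent antagonist of Angpt1, read 111, 94.2 and 131 in control, 143, 184 and 280 in DEX, and 119, 144 and 203 in DEX + TE muscle. The DEX arrays lay above control by 0.81 ± 0.29 (adjusted p = 0.274), and the DEX + TE arrays overlapped both. A second Angpt2 probe set was below 50 on every array and was not tested. Tek read between 654 and 829 on all 9 arrays, with log2 fold changes from 0.01 to 0.05, and Tie1 overlapped between groups.

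The apelin receptor (Aplnr), a G protein-coupled receptor of growing endothelium, had the largest fall of the 48 genes by log2 fold change. Its signal was 646, 517 and 724 on the control arrays, 154, 125 and 224 on the DEX arrays, and 178, 155 and 204 on the DEX + TE arrays. The highest treated array, at 224, was far below the lowest control array, at 517. Aplnr fell to 0.262 of control in DEX, a log2 fold change of -1.93 ± 0.24 (limma, adjusted p = 0.0277), and to 0.286 of control in DEX + TE, or -1.81 ± 0.24 (adjusted p = 0.0372). The difference between the treated groups was 0.13 ± 0.24 (adjusted p = 0.92). The second Aplnr probe set read 143, 133 and 164 in control, 86.0, 33.0 and 45.3 in DEX, and 125, 55.5 and 125 in DEX + TE muscle. It was lower by -1.53 in DEX (adjusted p = 0.173) and by -0.61 in DEX + TE (adjusted p = 0.553). Without DEX replicate 3 the DEX call was kept (adjusted p = 0.0221), and without each of the other 8 arrays it was lost (at most 0.0873). The DEX + TE call was kept in 2 of 9 refits, those without DEX replicate 2 and without DEX replicate 3, with adjusted p from 0.028 to 0.129 over the 9. Its ligand gene Apln read 146, 215 and 146 in control, 98.5, 142 and 160 in DEX, and 80.1, 101 and 134 in DEX + TE muscle. Only the DEX + TE arrays lay below control as a group, by -0.69 ± 0.27 (adjusted p = 0.328).

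Among the Notch genes, the endothelial receptor Notch4 and the target gene Hey1 stood on opposite sides of control. Notch4 read 195, 288 and 408 in control, 148, 166 and 169 in DEX, and 106, 135 and 187 in DEX + TE muscle. All treated arrays were below control, by -0.82 ± 0.30 in DEX (adjusted p = 0.275) and -1.03 ± 0.30 in DEX + TE (adjusted p = 0.213). Hey1, a repressor switched on by Notch, read 168, 101 and 242 in control, 287, 428 and 260 in DEX, and 370, 303 and 327 in DEX + TE muscle. All treated arrays were above control, by 0.98 ± 0.33 (adjusted p = 0.238) and 1.05 ± 0.33 (adjusted p = 0.24). The ligand Dll4 and the receptor Notch1 overlapped between groups, with log2 fold changes from -0.03 to 0.24. Of 12 other Notch pathway genes tested, none was called in limma in any comparison, and 1, 1 and 3 were higher at an unadjusted p below 0.05 in DEX against control, DEX + TE against DEX and DEX + TE against control, with none lower. The target Nrarp, a feedback inhibitor of Notch, had the smallest limma p of this list in both comparisons with control. It was at 0.72 ± 0.20 in DEX (adjusted p = 0.168) and 0.93 ± 0.20 in DEX + TE (adjusted p = 0.119). Rank Product called no gene of this list, nor of the other pathway and marker lists described here, in any comparison. Those lists include Col3a1, a fibroblast marker at -2.77 in DEX against control that limma called (adjusted p = 0.0114). A zero by Rank Product therefore does not decide whether a gene changed.

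Sox17, a transcription factor of arterial endothelium, read 960, 1163 and 1018 in control, 434, 794 and 716 in DEX, and 631, 627 and 761 in DEX + TE muscle. All treated arrays lay below control, by -0.73 ± 0.23 in DEX (adjusted p = 0.216) and -0.64 ± 0.23 in DEX + TE (adjusted p = 0.297), and the second probe set was at -0.40 and -0.05. Fli1, an ETS factor, read 732, 1146 and 771 in control, 901, 1137 and 1016 in DEX, and 1184, 1305 and 1241 in DEX + TE muscle. The DEX + TE arrays were above all others, by 0.52 ± 0.19 against control (adjusted p = 0.291). Erg and Ets1, the other ETS factors, and Sox18 overlapped between groups, from -0.18 to 0.34.

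Gpihbp1 encodes the capillary protein that carries lipoprotein lipase to the vessel lumen, where the enzyme frees fatty acids for the fibers. Its signal was 2188, 2173 and 2302 in control, 1046, 1308 and 1156 in DEX, and 1111, 915 and 1178 in DEX + TE muscle. The control arrays lay within a narrow range and every treated array was well below them. Gpihbp1 fell to 0.525 of control in DEX, or -0.93 ± 0.13 (limma, adjusted p = 0.0409), and to 0.478 in DEX + TE, or -1.06 ± 0.13 (adjusted p = 0.0314). The treated groups differed by -0.13 ± 0.13 (adjusted p = 0.84). Without any 1 of the 9 arrays the DEX call was lost, with adjusted p from 0.0585 to 0.124, and it was lost when arrays were centred on their medians (-0.83, adjusted p = 0.0606). The DEX + TE call was kept without DEX replicate 1 alone (0.044) and lost without each of the others (at most 0.114). Of 9 other genes of capillary fatty acid handling tested, none was called by limma in any comparison. At an unadjusted p below 0.05, 1 was higher and 2 were lower in DEX against control, 0 in DEX + TE against DEX, and 1 was lower in DEX + TE against control. Lpl, the lipase that Gpihbp1 carries, had a mean of 35435 ± 2850 (SD, n = 3) in control, 23537 ± 945 in DEX and 25381 ± 1663 in DEX + TE muscle. Its groups did not overlap between control and DEX, at -0.59 ± 0.10 (adjusted p = 0.0685).

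Von Willebrand factor (Vwf), which endothelial cells store and release to catch platelets, read 556, 442 and 596 in control, 232, 303 and 276 in DEX, and 255, 350 and 270 in DEX + TE muscle. All treated arrays were below control, by -0.97 ± 0.18 in DEX (adjusted p = 0.0776) and -0.87 ± 0.18 in DEX + TE (adjusted p = 0.116), short of the call. Egfl7, a matrix protein secreted by endothelial cells, read 577, 717 and 590 in control, 1031, 957 and 810 in DEX, and 1033, 870 and 926 in DEX + TE muscle. All treated arrays were above control, by 0.57 ± 0.14 (adjusted p = 0.141) and 0.59 ± 0.14 (adjusted p = 0.154), and its 3 other probe sets were at 0.02 to 0.35 in DEX. The Egfl7 and Sox17 probe sets are of the x type, in which some probes can match other transcripts. Plvap, the protein of the diaphragms of fenestrated endothelium, read 775, 703 and 989 in control, 970, 1050 and 956 in DEX, and 801, 894 and 729 in DEX + TE muscle. Its DEX + TE arrays lay below the DEX arrays, by -0.30 ± 0.15 (adjusted p = 0.694). Nos3 (endothelial nitric oxide synthase), Thbd (thrombomodulin) and Robo4 overlapped between groups, from -0.31 to 0.19.

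Of the leukocyte adhesion molecules only Vcam1 was called by limma, and only in DEX + TE against control. The paper, with its own summary of the arrays and Rank Product, lists VCAM1 among genes lower in DEX than in control muscle. Vcam1, which holds monocytes and lymphocytes to activated endothelium, read 233, 247 and 262 in control, 133, 122 and 184 in DEX, and 102, 113 and 87.8 in DEX + TE muscle. The 3 groups did not overlap, with DEX + TE lowest. Vcam1 fell to 0.407 of control in DEX + TE, or -1.30 ± 0.17 (limma, adjusted p = 0.0379), whereas DEX was at -0.78 ± 0.17 (adjusted p = 0.117) and the step between the treated groups at -0.52 ± 0.17 (adjusted p = 0.562). The call was kept without DEX replicate 3 (0.028) and lost without each of the other 8 arrays (at most 0.134). A second probe set was at -0.52 in DEX (adjusted p = 0.549) and -0.14 in DEX + TE (adjusted p = 0.878). The remaining one read 59.4, 62.2 and 93.6 in control and below 50 on all treated arrays but 1 DEX array, so no fold is given for it. Icam1, which binds leukocyte integrins, read 116, 143 and 122 in control, 134, 128 and 215 in DEX, and 205, 235 and 216 in DEX + TE muscle. The DEX + TE arrays lay above control by 0.79 ± 0.21 (adjusted p = 0.181), and the DEX arrays overlapped both other groups. The selectins were near the limit of detection. Sele read 61.6, 67.7 and 38.2 in control, below 50 on all DEX and DEX + TE arrays, and Selp ranged from 6.15 to 162 over the 9 arrays, so no fold is given for either.

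The lymphatic markers gave low or variable signals. Prox1, the transcription factor of lymphatic identity, read 37.6, 42.5 and 54.2 in control, 31.3, 30.7 and 25.4 in DEX, and 77.7, 75.5 and 29.5 in DEX + TE muscle. All 3 DEX arrays were below the limit of 50. Lyve1 ranged from 42.5 to 239 in control and from 19.8 to 136 in DEX muscle, and from 111 to 219 in DEX + TE muscle. Of 4 other lymphatic genes tested, none was called by limma in any comparison, with 1, 0 and 2 higher and none lower at an unadjusted p below 0.05 in DEX against control, DEX + TE against DEX and DEX + TE against control. Mmrn1, a secreted protein found in lymphatic endothelium and platelets, had the smallest p, at 1.05 ± 0.31 in DEX against control (adjusted p = 0.188).

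For the mural cells that wrap capillaries, Rgs5, a pericyte signalling regulator and the gene of highest signal among the 48, read 26741, 23229 and 25349 in control, 19683, 21398 and 20514 in DEX, and 20683, 22213 and 22986 in DEX + TE muscle. All treated arrays lay below control, by -0.29 ± 0.10 (adjusted p = 0.248) and -0.19 ± 0.10 (adjusted p = 0.436). Cspg4 (NG2, a pericyte proteoglycan) read 246, 256 and 351 in control, 202, 228 and 241 in DEX, and 198, 192 and 230 in DEX + TE muscle. By this probe set it too was below control on all treated arrays, by -0.33 ± 0.16 (adjusted p = 0.41) and -0.45 ± 0.16 (adjusted p = 0.301). The second Cspg4 probe set was at -0.02 in DEX and -0.02 in DEX + TE against control, with overlapping groups. Mcam overlapped between groups. Of 13 other mural cell genes tested, none was called by limma, with 1 higher and none lower at an unadjusted p below 0.05 in each comparison with control and none in DEX + TE against DEX.

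Epas1 (HIF-2 alpha), the hypoxia-inducible factor that endothelial cells are rich in, read 12162, 13332 and 13613 in control, 12175, 10682 and 10848 in DEX, and 10480, 11034 and 10527 in DEX + TE muscle. Only the DEX + TE arrays lay wholly below control, by -0.29 ± 0.10 (adjusted p = 0.279). Hif1a overlapped between groups, from -0.31 to 0.26. Of 17 genes of the hypoxia pathway tested, none was called by limma, and an unadjusted p below 0.05 was reached by 3 higher and 3 lower in DEX, 1 and 1 in DEX + TE against DEX, and 2 and 2 in DEX + TE against control.

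**Figure D4:**
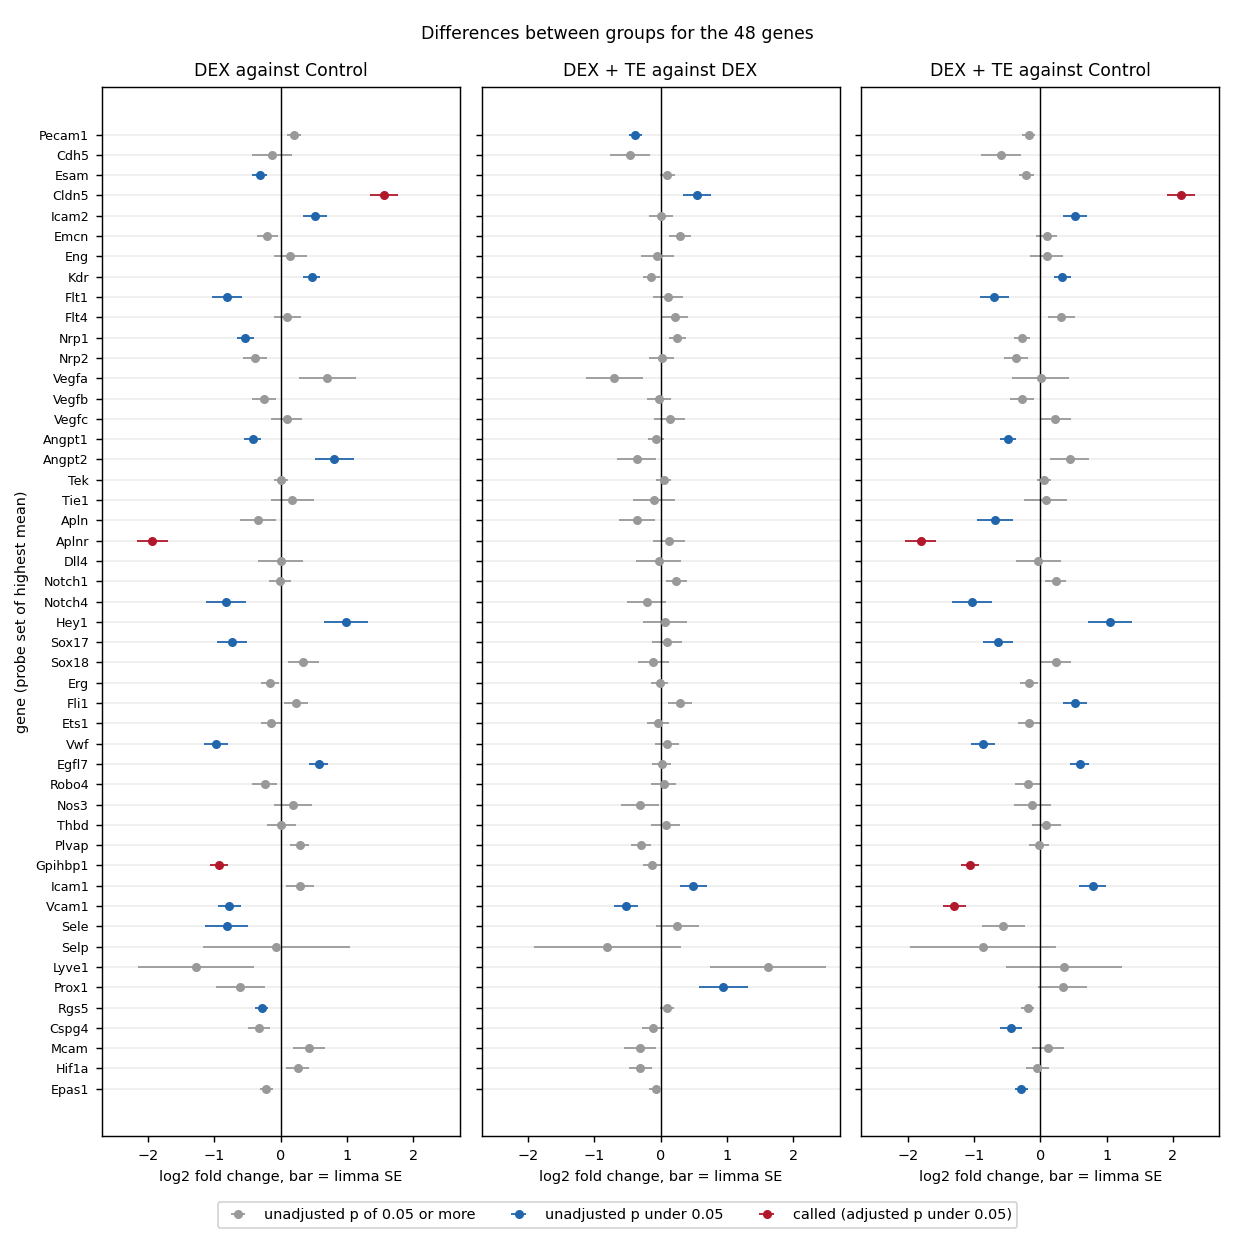
Log2 fold change with the limma SE for the 48 genes in the 3 comparisons, with called genes in red and genes with an unadjusted p below 0.05 in blue. The called genes are Cldn5, Aplnr and Gpihbp1 in DEX against control, the same with Vcam1 in DEX + TE against control, and none in DEX + TE against DEX.

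Among 38 other endothelial genes tested, 1 was called lower and none higher by limma in DEX against control, and the same gene was the only call in DEX + TE against control. It was Aqp1, the water channel of capillary endothelium, with means of 12009 ± 340 (SD, n = 3) in control, 7744 ± 333 in DEX and 7756 ± 146 in DEX + TE muscle. Aqp1 fell by 0.63 on the log2 scale in DEX (adjusted p = 0.0341) and by 0.63 in DEX + TE (adjusted p = 0.0379). Ramp2, the partner of the adrenomedullin receptor, was at -0.93 ± 0.17 in DEX (adjusted p = 0.0721) and -1.07 ± 0.17 in DEX + TE (adjusted p = 0.0593), and Ptprb, the phosphatase that restrains Tek, at -0.44 ± 0.08 (adjusted p = 0.0786) and -0.49 ± 0.08 (adjusted p = 0.0696). Both did not overlap with control.

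Of 22 other ligands and inhibitors of angiogenesis tested, 1 was called higher in DEX against control and 1 higher and 1 lower in DEX + TE against control. Thbs1 (thrombospondin 1, an inhibitor of angiogenesis) had means of 115 ± 12.5 (SD, n = 3) in control, 487 ± 111 in DEX and 456 ± 80.3 in DEX + TE muscle. It rose by 2.06 ± 0.20 on the log2 scale in DEX (limma, adjusted p = 0.0133) and by 1.97 ± 0.20 in DEX + TE (adjusted p = 0.0149). Timp3, an inhibitor of metalloproteinases, fell by 0.85 in DEX + TE (adjusted p = 0.0392) and was at -0.71 in DEX (adjusted p = 0.0585). Serpinf1, which encodes the angiogenesis inhibitor PEDF, was at -1.22 ± 0.19 in DEX (adjusted p = 0.0524). No gene of these lists was called by limma in DEX + TE against DEX, where at an unadjusted p below 0.05 the first list had 3 higher and 1 lower and the second 2 higher and 1 lower.

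Markers of other cells in the muscle differed between the groups too. Of 11 fibroblast markers, 4 were called lower in DEX against control. All 11 were higher by value in DEX + TE than in DEX and none was called there. At an unadjusted p below 0.05 in limma 8 of them were higher, against 5.97% of all genes. The summed signal of all 11 ran from 53076 to 78133 in control, 33940 to 45304 in DEX and 57650 to 63645 in DEX + TE muscle. Of 8 muscle fiber markers, all 8 were lower by value in DEX, none of them called by limma and 6 at an unadjusted p below 0.05, with sums from 333782 to 415654 against 444165 to 580219 in control. Of 11 leukocyte and macrophage markers, 9 were lower by value in DEX and 11 higher in DEX + TE than in DEX. The 4 adipocyte markers were higher by value in both treated groups, and 2 of them were called in DEX + TE against control. The sums of 9 pericyte and smooth muscle markers overlapped between control (50284 to 57609), DEX (45035 to 51635) and DEX + TE (47662 to 51655). Of the 6 platelet markers 5 were tested and none was called by limma, 1 was lower in DEX than in control and 1 higher in each comparison of DEX + TE at an unadjusted p below 0.05, and their sums ran from 814 to 1098 in control, 723 to 751 in DEX and 1082 to 1339 in DEX + TE muscle. The sums of 3 Schwann cell markers overlapped (3371 to 3578, 2899 to 3882 and 3195 to 5758 in the same order). Of 3 red cell markers on the arrays, Hba-a1 was below 50 on every array and only Alas2 was tested. Alas2 had means of 104.5 in control, 102.5 in DEX and 60.4 in DEX + TE muscle. By value it was lower in each comparison, with overlapping groups, and limma did not call it. The part of these cells in the differences of the 48 genes was not tested.

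The spread between mice was widest in the DEX group. The median coefficient of variation over the 48 genes was 12.8% in control, 18.6% in DEX and 12.2% in DEX + TE muscle, against 14%, 14.3% and 12.6% for all genes tested. In the DEX group 5 of the 48 genes varied by more than 2-fold between arrays, namely Vegfa, Nos3, Tie1, Selp and Lyve1, against 3 in each other group. Nos3 read 303, 664 and 572 on the DEX arrays and 425, 423 and 431 on the control arrays. As for Vegfa, DEX array 1 was below and DEX arrays 2 and 3 above all control arrays. DEX array 1 was the lowest of its group for 25 of the 48 genes, where 37.1% of all genes were lowest on it, and DEX + TE array 1 was likewise lowest for 25, against 35.9%.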

How the data were processed

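For each of the 9 arrays the authors deposited the intensities of 45101 probe sets, from 250 ng of RNA per mouse (GeneChip 3′IVT Express). These intensities are linear, with a mean of 500 on every array after trimming 2% at each end. The methods describe Robust Multi-array Average. The array medians of the deposited intensities differ, and which program and summary gave them is not given in the sources. The number of arrays limits the precision.

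After leaving out 64 control probe sets, log2 was taken without an offset, and probe sets whose mean reached log2 of 50 in at least 1 group were kept (29269). Symbols came from the platform annotation. A model of 3 group means over the 9 arrays was fitted with limma 3.58.1 (R 4.3.3), with Benjamini-Hochberg adjustment over all probe sets kept. A call needed an adjusted p below 0.05 and a log2 fold change of at least 0.6 in size, the thresholds of the methods. Rank Product, which the methods apply to Robust Multi-array Average values, was run here on the deposited intensities as an alternative. It used 100 permutations, and its null exchanges probe sets within an array and so assumes the same spread for all of them. Its calls can therefore differ from those of the paper. Further alternatives were other scalings, filters, offsets and designs and leaving out each array. Scripts in R and Python 3.11.15 (numpy 2.4.6, scipy 1.17.1, pandas 2.3.3, matplotlib 3.10.9) were tested on simulated data.

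All 94 probe sets of the 48 genes kept their symbol when matched by Entrez number to RefSeq (GRCm38.p6). The 26 genes with an unadjusted p below 0.05 or groups that do not overlap in any comparison were given in full and the other 22 by range and counts, with Vegfa and Nos3 added after their values were seen. Of the other lists, up to 3 genes with the smallest p were eligible. The members and lists were chosen with earlier results of these data known.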

Additional observations from a re-analysis of the deposited data

How the results depend on the processing

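Calls among the 48 genes depended on the setting, although the called genes kept their direction in every setting tried. For DEX against control, the 3 calls of the fit became 0 with no filter on low signal, 0 in a fit to the 6 arrays compared, 0 by Rank Product, 5 with all arrays at 50 or more, 5 with a mean-variance trend, and 0 to 1 when 1 array was left out. The added calls were Vwf with Vcam1 and Vwf with Flt1. Centring arrays left 2, without Gpihbp1. For DEX + TE against control, the 4 calls became 1 with no filter, 1 in the fit to 6 arrays, 0 by Rank Product and 0 to 3 when 1 array was left out. With the replicate number as a block (replicate block) 1 gene, Aplnr, was called in each comparison with control. The labels do not say that the numbers pair the mice. Over all probe sets, deviations of same-numbered arrays correlated at -0.021 to 0.048 and those of other arrays at -0.04 to 0.042. Such correlations cannot decide whether arrays of the same number shared a batch that affected some genes. For DEX + TE against DEX the count was 0 in every setting.

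Centring arrays on their medians moved the median of all probe sets from -0.03 to 0.08 in DEX against control, from 0.06 to -0.20 in DEX + TE against DEX and from 0.05 to -0.10 in DEX + TE against control. The median of the 48 genes then was 0.002, -0.258 and -0.234. When 1 array was left out it ran from -0.186 to -0.049 in DEX + TE against control. Of single genes, Angpt2 turned from 0.81 to -0.66 in DEX against control when averaged with its other probe set, which was below 50 on every array, and Nrp1 in DEX + TE against DEX from 0.25 to -0.00 after centring. The signals of Sele, Selp and Prox1 were close to the limit of detection, which limits what can be said of them.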
